A study of Sus scrofa with 92 samples.

Results

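The nonmuscle actin, myosin and adhesion cytoskeleton was followed in pig liver through 10 gene symbols: ACTB, ACTG1, MYH9, MYH10, MYH14, TLN1, VCL, FLNA, VIM and SHROOM3. The members were all rows of the count table whose pig Ensembl identifier carries one of these symbols. Rows were found for 9 of the 10 symbols, and MYH10 sits on 2 rows, so the members were 10 rows of the 25322 counted. FLNA (filamin A, which crosslinks actin filaments) was matched to no row and is not analysed here. All 10 rows passed the filter on low counts in every fit.

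The beta and gamma actins assemble into the filaments that carry the hepatocyte cortex, line the bile canaliculus and anchor junctions. Nonmuscle myosin II, built on a heavy chain from MYH9, MYH10 or MYH14, pulls on these filaments, and talin and vinculin couple the filaments to integrins. Vimentin forms the intermediate filaments of mesenchymal, endothelial and blood cells and is scarce in hepatocytes, whose own intermediate filaments are keratins 8 and 18.

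Liver biopsies came from 23 male Yorkshire-Landrace pigs that all fasted overnight and were all subjected to hemorrhagic shock with chest and liver injury, splenectomy and resuscitation, with no uninjured group. The 18 fasted (FS) animals received nothing more, and the 5 carbohydrate prefed (CPF) animals were given a bolus of corn syrup before induction of anesthesia. Biopsies were taken at Baseline (B, after instrumentation and before hemorrhage) and again during full resuscitation, at 2 hours (FR2), 8 hours (FR8) and 20 hours (FR20), and a comparison of FR2 with Baseline is written FR2vB. Of 92 libraries, 88 were used: FS 15 at Baseline and 18 at each later time point, and CPF 5 at each time point except 4 at FR8. The Baseline libraries of FS animals 17, 19 and 21, which hold 4, 899 and 5 albumin reads, and the FR8 library of CPF animal 3, with 4388 reads in all, were left out. The 88 libraries held 6877117 to 16613261 counted reads. Levels are given as CPM, the reads of a gene per 1 M counted reads with TMM scaling, changes as log2 fold changes with their standard error (SE), and a member passed at an adjusted p under 0.05 (edgeR quasi-likelihood test with Benjamini-Hochberg adjustment over all genes tested). Time points were compared within animals, and the feeding groups between animals.

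Albumin, the defining hepatocyte product, was abundant in all 88 libraries (9520 to 192000 CPM). Several libraries went against their time labels. Each library was set against the mean profile of the other FS animals at each time point over 1000 genes that vary with time, none of them from the member or pathway lists. Of 88 libraries 70 were closest to their own time point and 18 to another. FS animals 17, 19 and 21 had all 3 of their libraries closest to another time point, FS animal 10 had 3 of 4, and CPF animal 13 and FS animal 9 had 2 of 4 each. The labels were kept throughout, and counts of passing members are given with and without FS animals 10, 17, 19 and 21 and, where it changes a call, without CPF animal 13. Those animals were chosen, after seeing the data, for being unlike the others at their time points, so a narrower spread without them follows from the choice. Larger changes over time without them, shared by more of the remaining animals, can follow from it too.

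**Figure D1:**
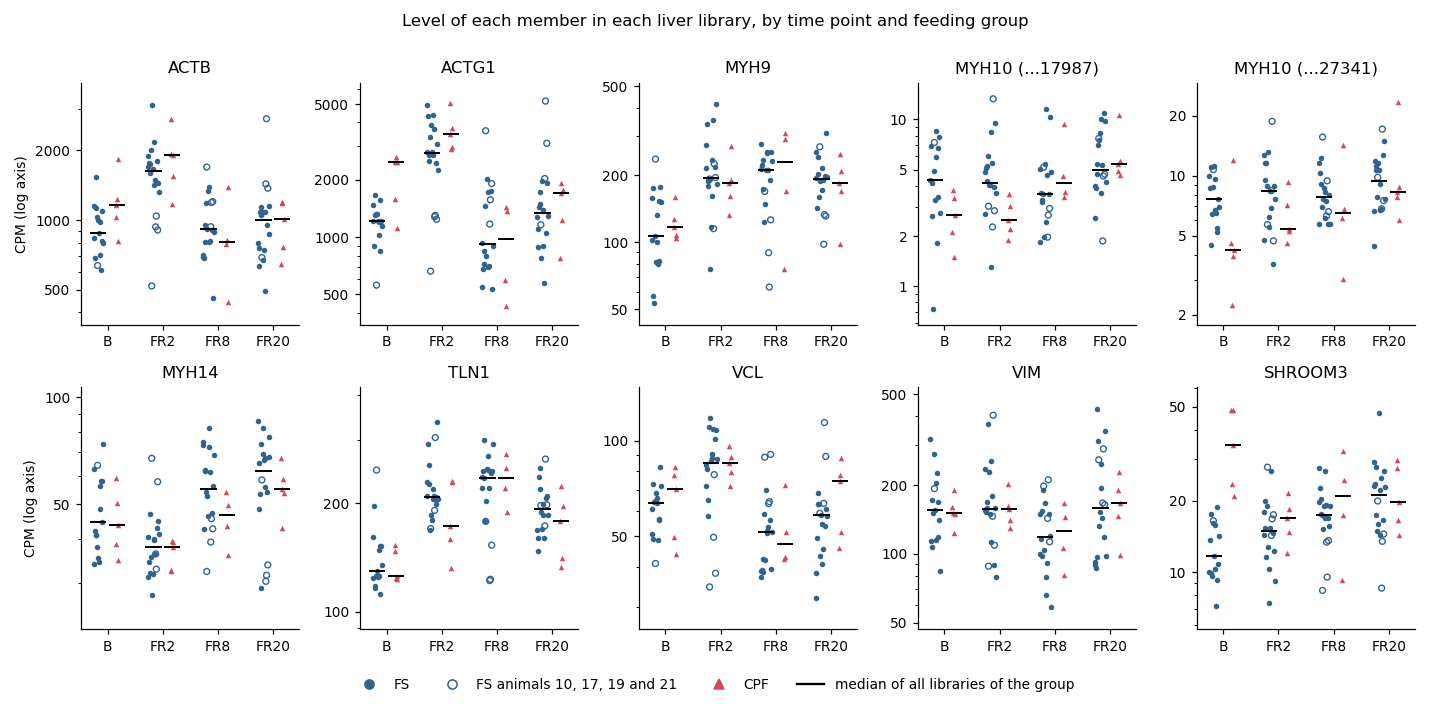
Level of each member (CPM, log axis) in each of the 88 libraries at Baseline, FR2, FR8 and FR20. Circles are FS libraries, open circles the 4 FS animals whose libraries were mostly closest to another time point, triangles CPF libraries and bars group medians. The medians of ACTB, ACTG1 and VCL peak at FR2, the FS medians of MYH9 and TLN1 stay above Baseline at all 3 later time points, and the CPF median of SHROOM3 is highest at Baseline (34.4 CPM).

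In FS animals the actins, the myosin heavy chain MYH9 and the adhesion proteins talin and vinculin rose by FR2. The actins and vinculin were back near Baseline at FR8, while MYH9 and TLN1 were still up at FR20. SHROOM3 passed at FR8 and FR20 but not at FR2 (0.38, edgeR adjusted p = 0.0743). Its change from FR2 to FR8 did not pass (0.16, edgeR adjusted p = 0.476), but did without FS animals 10, 17, 19 and 21 (0.42, edgeR adjusted p = 0.0308). A rise later than FR2 was thus shown only with those animals left out. At FR2vB 5 of the 10 rows passed, all upward, against 41.4% of all 13667 genes tested. At FR8vB 4 passed (39.3% of all genes), 3 up and 1 down, and at FR20vB 4 passed (33.8%), all up. The median member change was 0.38 at FR2vB, 0.05 at FR8vB and 0.28 at FR20vB, beside -0.04, 0.00 and 0.04 over all genes. The share of members that passed was close to that background. Without FS animals 10, 17, 19 and 21, 6 rows passed in each of the 3 comparisons, beside 50.3%, 53.1% and 44.1% of all genes. Of these, MYH14 fell at FR2vB, VCL and VIM at FR8vB and VCL at FR20vB, and the others rose.

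**Figure D2:**
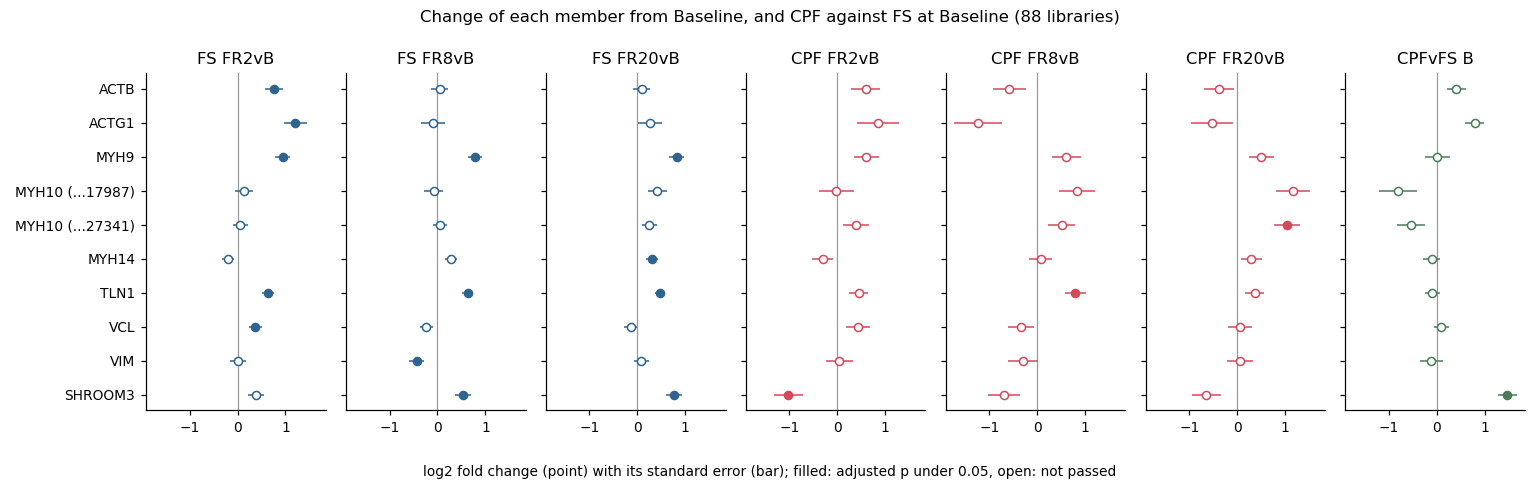
Log2 fold change of each member from Baseline in FS and CPF animals, and CPF against FS at Baseline, each point with its standard error; filled points passed at an adjusted p under 0.05. The FS changes with filled points are mostly to the right of 0, and the SHROOM3 point lies to the left at CPF FR2vB (-1.02) and to the right at CPFvFS B (1.47).

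ACTG1 (gamma actin, ENSSSCG00000028355) showed the largest FS change among the members. In FS animals its level was 559, 1210 and 1670 CPM at Baseline (lowest, median, highest), 662, 2750 and 4960 CPM at FR2, 531, 916 and 3620 CPM at FR8 and 574, 1330 and 5180 CPM at FR20. The FS ranges overlapped, and animal 10 was the lowest at Baseline and FR2 and the highest at FR8. Without the 4 animals above, FR2 (2250 to 4960 CPM, n = 14) lay wholly above Baseline (840 to 1670 CPM, n = 14). Every one of the 15 FS animals with a Baseline library rose from Baseline to FR2. The FS FR2vB change was 1.21 (SE 0.25, edgeR adjusted p = 8.37e-05), a 2.32-fold rise and the only member change in FS animals from Baseline that passed and reached 2-fold (11% of all genes). It then fell by 1.31 from FR2 to FR8 (SE 0.24, edgeR adjusted p = 8.01e-05), with 15 of 18 animals lower, and by 1.78 without the 4 animals, with 14 of 14 lower. At FR8vB and FR20vB the changes were -0.09 and 0.26 (edgeR adjusted p = 0.796 and 0.454).

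In CPF animals ACTG1 stood at 1580, 2490, 2630, 2480 and 1120 CPM at Baseline in animals 3, 7, 8, 13 and 18. It stood at 3490, 5060, 2890, 3730 and 2970 CPM at FR2 in the same order, above the same animal's Baseline in 5 of 5. At FR8 animals 7, 8, 13 and 18 had 593, 1440, 433 and 1370 CPM, all lower than at FR2. The FR2vB change of 0.85 (SE 0.44) did not pass (edgeR adjusted p = 0.267). The fall from FR2 to FR8 passed at -2.09 (SE 0.51, edgeR adjusted p = 0.0131), but no longer did without animal 7 (-1.79) or without animal 13 (-1.80).

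ACTB (beta actin, ENSSSCG00000007585) followed the same course on a smaller scale. Its FS levels were 608, 883 and 1530 CPM at Baseline, 520, 1630 and 3120 CPM at FR2, 464, 912 and 1690 CPM at FR8 and 496, 1000 and 2730 CPM at FR20. The FS groups overlap, yet 14 of 15 animals were higher at FR2 than at Baseline, animal 10 being the exception. The change was 0.76 at FS FR2vB (SE 0.18, edgeR adjusted p = 0.000418), then -0.71 from FR2 to FR8 (SE 0.17, edgeR adjusted p = 0.00102). At FR8vB and FR20vB it was 0.05 and 0.09, and neither passed. In CPF animals ACTB went from 1030, 1160, 1230, 1830 and 815 CPM at Baseline to 1930, 2720, 1170, 1900 and 1540 CPM at FR2 (animals 3, 7, 8, 13 and 18), which did not pass (0.59, SE 0.31, edgeR adjusted p = 0.284). The CPF fall from FR2 to FR8 passed (-1.17, SE 0.35, edgeR adjusted p = 0.0336) and was lower in 4 of 4 animals, but the call was lost on leaving out any of animals 3, 7, 8 and 13.

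ACTB and ACTG1 encode near-identical proteins. How reads that fit both genes were assigned is not given in the sources used here, so the split of such reads between them is uncertain. Reads on ACTG1 made up a median of 56.9% of the reads on both actins in FS animals at Baseline, 61.9% at FR2, 54.3% at FR8 and 59% at FR20, with no correction for transcript length. The sum over both genes does not depend on how counted reads were split between them, but it would lack any reads left uncounted. Its FS medians were 2180 CPM at Baseline, 4460 CPM at FR2, 1790 CPM at FR8 and 2310 CPM at FR20. Over the 88 libraries ACTB and ACTG1 correlated at r = 0.91 on the log2 CPM scale, libraries that share animals and time points.

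MYH9 (heavy chain of nonmuscle myosin IIA, ENSSSCG00000000145) rose by FR2 and did not come down. Its FS levels were 53.3, 107 and 236 CPM at Baseline, 75.9, 193 and 416 CPM at FR2, 62.9, 210 and 276 CPM at FR8 and 97.9, 193 and 310 CPM at FR20. The groups overlap, with most later libraries above the Baseline median. The changes from Baseline were 0.94 (SE 0.16, edgeR adjusted p = 3.32e-06), 0.78 (SE 0.15, edgeR adjusted p = 5.29e-05) and 0.82 (SE 0.15, edgeR adjusted p = 3.44e-05) at FR2, FR8 and FR20. MYH9 was higher than at Baseline in 13, 14 and 14 of 15 FS animals, respectively. In CPF animals the same 3 changes were 0.61, 0.61 and 0.51, with edgeR adjusted p of 0.194, 0.158 and 0.341, none of which passed. MYH9 took up a median of 65.8% of the reads on the 3 nonmuscle heavy chain genes at FS Baseline and 78.4% at FR2.

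MYH14 (heavy chain of nonmuscle myosin IIC, found mainly in epithelia, ENSSSCG00000027407) moved against the actins. Its FS levels were 33.9, 44.5 and 73.8 CPM at Baseline, 27.8, 37.9 and 67.3 CPM at FR2, 32.3, 55.3 and 81.9 CPM at FR8 and 29.0, 61.8 and 85.6 CPM at FR20. From FR2 to FR8 it rose by 0.48 (SE 0.12, edgeR adjusted p = 0.00129) in 16 of 18 animals. At FR20vB it passed at 0.31 (SE 0.12, edgeR adjusted p = 0.0415), a call that was lost on leaving out CPF animal 8 or 18, which share the estimate of spread. The FR2vB value of -0.20 did not pass (edgeR adjusted p = 0.202), whereas without the 4 FS animals it was -0.33 (edgeR adjusted p = 0.00835) and MYH14 passed at all 3 time points. Across the 88 libraries MYH14 correlated negatively with ACTB (r = -0.65), ACTG1 (r = -0.62) and VCL (r = -0.61).

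MYH10 (heavy chain of nonmuscle myosin IIB) had few reads, 7 to 208 per library on ENSSSCG00000017987 and 26 to 367 on ENSSSCG00000027341. The ratio of reads between the 2 rows varied from 0.591 to 8.71 over the libraries, and whether reads were shared out between overlapping models was not tested. Both rows took the symbol from the study's lists of differentially expressed genes, so their changes are no independent evidence. In FS animals ENSSSCG00000027341 had medians of 7.63, 8.37, 7.79 and 9.43 CPM from Baseline to FR20, and neither row passed in any FS comparison with Baseline. ENSSSCG00000017987 did pass at FS FR20vB without the 4 FS animals (0.51, edgeR adjusted p = 0.0232), and at FS FR8vB with the 3 albumin-free Baseline libraries kept (-0.93, edgeR adjusted p = 0.0259). In CPF animals 3, 7, 8, 13 and 18 the row ENSSSCG00000027341 stood at 4.58, 2.23, 11.9, 3.94 and 4.23 CPM at Baseline. At FR20 it stood at 7.83, 8.25, 23.4, 8.77 and 5.96 CPM in the same order. It was higher in 5 of 5, with animal 8 the highest at both time points. This FR20vB rise of 1.05 passed (SE 0.27, edgeR adjusted p = 0.0380), the single member of 10 to do so, against 0.893% of all genes. The call was lost on leaving out any of animals 3, 7, 8 and 18. The other row changed by 1.17 (SE 0.35, edgeR adjusted p = 0.0691), also higher in 5 of 5, and the 2 rows summed by 1.07 (SE 0.24, edgeR adjusted p = 0.0211), a sum chosen after seeing the data. At CPF FR20vB both rows passed when the 4 FS animals, which share the estimate of spread, were left out (7.56% of all genes).

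TLN1 (talin 1, which links integrins to actin, ENSSSCG00000005317) kept a raised level like MYH9 and correlated with it over the libraries (r = 0.72). Its FS levels were 112, 130 and 247 CPM at Baseline, 168, 208 and 336 CPM at FR2, 122, 235 and 300 CPM at FR8 and 147, 193 and 265 CPM at FR20. Animal 10 held the highest Baseline value, and without the 4 animals the Baseline range was 112 to 196 CPM and the FR8 range 178 to 300 CPM. The changes from Baseline were 0.64 (SE 0.12, edgeR adjusted p = 1.12e-05), 0.63 (SE 0.11, edgeR adjusted p = 1.36e-05) and 0.47 (SE 0.11, edgeR adjusted p = 0.000985). In CPF animals TLN1 was 153, 147, 124, 126 and 123 CPM at Baseline in animals 3, 7, 8, 13 and 18, and 221, 273, 250 and 189 CPM at FR8 in animals 7, 8, 13 and 18, so the groups did not overlap. The CPF FR8vB change of 0.80 passed (SE 0.22, edgeR adjusted p = 0.0115), the only member of 10 to pass there, against 13.3% of all genes, and did not pass without animal 8 (0.67) or without animal 13 (0.75). There 2 members passed without the 4 FS animals (23.1% of all genes), TLN1 at 0.80 and ACTG1 at -1.24.

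VCL (vinculin, which reinforces talin and cadherin attachments, ENSSSCG00000010313) followed the actins rather than talin. Its FS levels were 41.1, 63.9 and 82.4 CPM at Baseline, 34.7, 85.2 and 118 CPM at FR2, 37.4, 51.8 and 90.5 CPM at FR8 and 32.0, 58.3 and 114 CPM at FR20. It rose by 0.37 at FR2vB (SE 0.14, edgeR adjusted p = 0.0278), in 12 of 15 animals, and fell by 0.60 from FR2 to FR8 (SE 0.13, edgeR adjusted p = 0.000616), in 15 of 18. The values at FR8vB and FR20vB were -0.23 and -0.14 and did not pass. Without the 4 FS animals VCL rose by 0.52 at FR2vB and was below Baseline at FR8 and FR20 (-0.39 and -0.27, edgeR adjusted p = 0.00111 and 0.0269). With the 3 albumin-free Baseline libraries kept, VCL was at -0.06, -0.73 and -0.65 at FR2vB, FR8vB and FR20vB (edgeR adjusted p = 0.839, 0.00371 and 0.0114). Across the 88 libraries VCL correlated with ACTG1 at r = 0.81 and with TLN1 at r = -0.04.

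**Figure D3:**
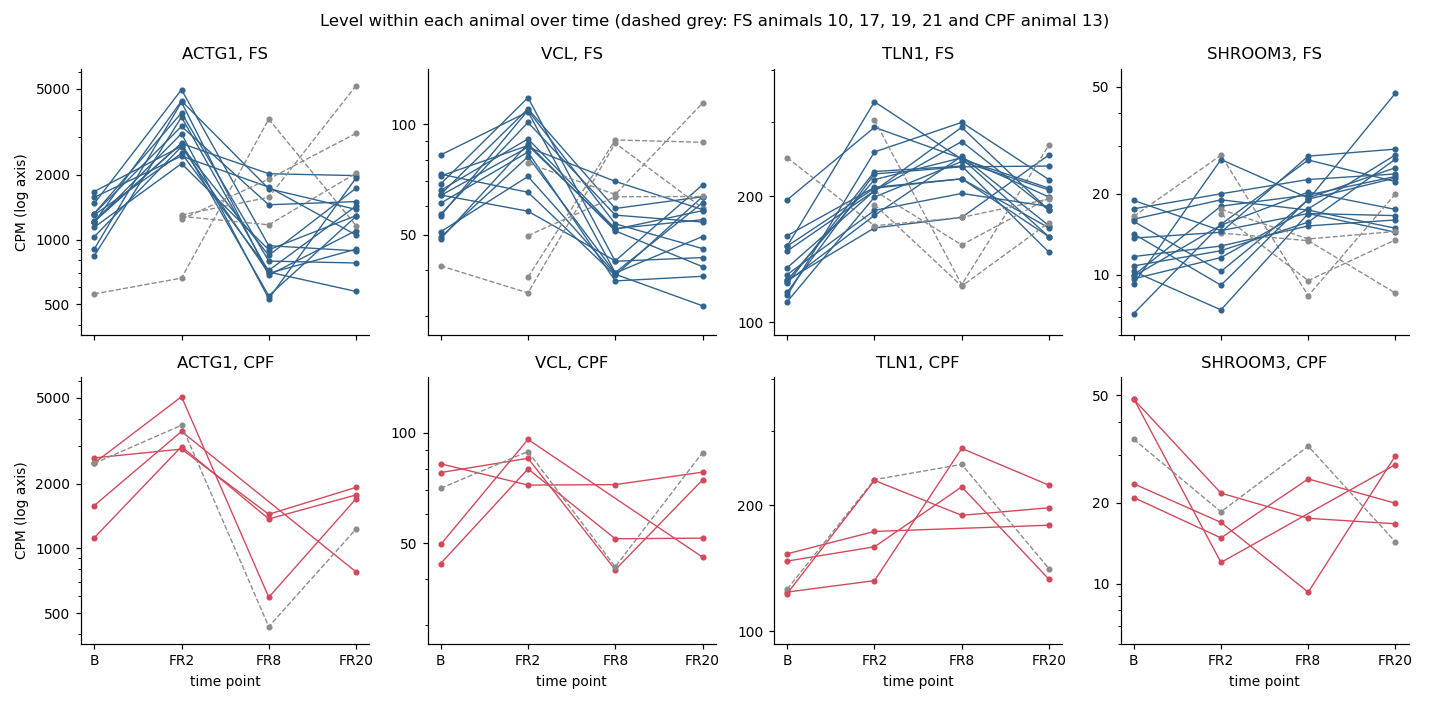
Level of ACTG1, VCL, TLN1 and SHROOM3 (CPM, log axis) in each animal over the 4 time points, 1 line per animal, FS above and CPF below; dashed grey lines are FS animals 10, 17, 19 and 21 and CPF animal 13, and CPF animal 3 has no FR8 point. Of the FS animals drawn in blue 14 of 14 rise to FR2 in ACTG1 and 12 of 14 in VCL, and 14 of 14 fall from FR2 to FR8 in both, TLN1 is above Baseline at FR8 in 14 of 14, and SHROOM3 falls from Baseline to FR2 in 5 of 5 CPF animals.

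Together, 5 of 10 rows passed in FS animals between FR2 and FR8 (28.4% of all genes), ACTB, ACTG1, VCL and VIM downward and MYH14 upward. Without the 4 FS animals 6 passed (48.2% of all genes), the same 5 and SHROOM3 at 0.42. In CPF animals 2 of 10 passed between FR2 and FR8 (7.21% of all genes), both actins, and none did without animal 7 or 13. This count was 3 without the 4 FS animals (20.5%), the actins and VCL at -0.77. From FR8 to FR20 1 of 10 FS rows passed (6.39% of all genes), VIM. This count was 3 with the 4 FS animals left out (23.8%), TLN1 at -0.33, ENSSSCG00000017987 of MYH10 at 0.51 and VIM at 0.54. No member passed at CPF FR20vFR8 (0.022% of all genes; 0 members at an unadjusted p under 0.05, beside 10.9% of all genes, and 0 by DESeq2).

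VIM (vimentin, ENSSSCG00000011033) was lowest at FR8. Its FS levels were 83.9, 156 and 319 CPM at Baseline, 79.3, 156 and 404 CPM at FR2, 58.7, 118 and 211 CPM at FR8 and 87.2, 159 and 430 CPM at FR20, and the groups overlapped. The FR8vB change was -0.43 (SE 0.16, edgeR adjusted p = 0.0278), the FR8vFR2 change -0.44 (SE 0.15, edgeR adjusted p = 0.0221) and the FR20vFR8 change 0.51 (SE 0.15, edgeR adjusted p = 0.0303). Without the terms for each animal none of the 3 passed (-0.40, -0.49 and 0.57, edgeR adjusted p = 0.120, 0.0544 and 0.0742), and with the 3 albumin-free Baseline libraries kept FR20vFR8 did not (0.51, edgeR adjusted p = 0.0787). Of a stellate cell and fibroblast list 8 of 9 symbols had a row. Its summed level had FS medians of 948, 529, 493 and 935 CPM from Baseline to FR20 (ranges 511 to 1920, 337 to 1800, 381 to 981 and 389 to 2210 CPM). The most abundant gene of the list, COL3A1, had FS medians of 670, 351, 347 and 615 CPM. Of the 2 COL1A2 rows in that list 1 had no read in any library. Of the 8 rows of the list that were tested 2 rose and 3 fell at FR2vB, and 1 rose and 3 fell at FR8vB. At FR8vFR2 1 rose and 2 fell, and at FR20vFR8 3 rose and none fell. Of the macrophage rows 4 of 5 fell at FR8vB, 1 of 5 fell at FR8vFR2 and 1 of 5 rose at FR20vFR8, and of the T and NK cell rows 4 of 6, 1 of 6 and none fell, with none rising. The macrophage sum ranged over 326 to 664, 243 to 601, 242 to 568 and 271 to 464 CPM from FS Baseline to FR20, and the T and NK cell sum over 30.5 to 79.4, 25.7 to 84.6, 20.8 to 63.3 and 20.6 to 60.5 CPM. Of the endothelial rows 1 of 5 rose and 1 fell at FR8vB, 1 rose at FR8vFR2 and none passed at FR20vFR8. Of the neutrophil rows 3 of 6 rose at FR8vB, 1 fell at FR8vFR2 and none passed at FR20vFR8. Over all genes 19.9% rose and 19.5% fell at FR8vB, and 28.4% and 6.39% passed at FR8vFR2 and FR20vFR8. The part of these cells in the VIM result was not tested. In bulk tissue fewer cells of a type and less RNA per cell cannot be told apart, for any member.

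SHROOM3 (an actin-binding protein of apical junctions that shapes epithelial cells, ENSSSCG00000008984) was the 1 member that passed between the feeding groups, and it did so at Baseline. At Baseline CPF animals 3, 7, 8, 13 and 18 had 48.6, 23.5, 48.4, 34.4 and 20.9 CPM, and the 15 FS animals had 7.19, 11.7 and 18.9 CPM (lowest, median, highest). The groups did not overlap. The CPFvFS difference at Baseline was 1.47 (SE 0.20, 95% interval 1.05 to 1.89, edgeR adjusted p = 0.000984), a 2.77-fold higher level in CPF, and SHROOM3 was 1 of only 4 genes of 11688 that passed (0.0342%). Without the 4 FS animals it was 1.5 (edgeR adjusted p = 0.00126; 0.164% of all genes passed), and leaving out each of the 23 animals in turn gave 1.31 to 1.60, passing each time. With the 3 albumin-free FS Baseline libraries kept, where SHROOM3 had 2, 4 and 8 reads, the difference was 1.73 but did not pass (edgeR adjusted p = 0.639). The symbol of this row comes from a table in which the study itself listed genes that differed with feeding, so the Baseline difference is no independent evidence.

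After Baseline the SHROOM3 ranges of the feeding groups overlapped. CPF animals 3, 7, 8, 13 and 18 had 12, 16.9, 21.7, 18.5 and 14.8 CPM at FR2, all below their own Baseline, 4 of them had 9.31, 17.5, 32.4 and 24.5 CPM at FR8 (animals 7, 8, 13 and 18), and the 5 had 27.7, 29.9, 16.7, 14.3 and 19.9 CPM at FR20. FS levels were 7.42, 14.9 and 27.8 CPM at FR2, 8.37, 17.5 and 27.6 CPM at FR8 and 8.56, 21.1 and 47.3 CPM at FR20. The CPF FR2vB change of -1.02 passed (SE 0.31, edgeR adjusted p = 0.0461), the only member of 10, against 3.41% of all genes, and did not pass on leaving out any single CPF animal (-1.15 to -0.80). In FS animals SHROOM3 rose by 0.54 at FR8vB (SE 0.17, edgeR adjusted p = 0.00931) and by 0.77 at FR20vB (SE 0.17, edgeR adjusted p = 0.000338), higher than Baseline in 13 of 15 animals at both. These SHROOM3 changes from Baseline use the same Baseline libraries as the Baseline difference and are no independent evidence either. The CPFvFS differences were 0.09 (95% interval -0.38 to 0.56) at FR2, 0.23 (-0.29 to 0.75) at FR8 and 0.02 (-0.51 to 0.54) at FR20.

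The change from Baseline was also compared between the feeding groups directly, as CPF change minus FS change. No member passed at FR2, FR8 or FR20, nor did any of the 13667 genes (0%), and DESeq2 and the edgeR likelihood ratio test called no member either. At an unadjusted p under 0.05, 1, 3 and 2 members were reached, beside 2.9%, 3.42% and 3.81% of all genes. SHROOM3 was among them at all 3 time points, with differences of -1.40 (95% interval -2.11 to -0.70), -1.23 (-1.99 to -0.48) and -1.41 (-2.11 to -0.71), whose edgeR adjusted p were 1.00, 0.999 and 0.480. These 3 values share the Baseline libraries. The other members reached were ACTG1 and a MYH10 row at FR8 and a MYH10 row at FR20. SHROOM3 and the MYH10 rows took their symbols from the study's lists of differentially expressed genes, so their part in these counts is no independent evidence. The FS rise of ACTG1 at FR2 that passed and the CPF rise that did not differed by -0.36 (95% interval -1.36 to 0.63), so the groups were not shown to differ in it. For MYH9 at FR2 the difference was -0.33 (-0.95 to 0.30).

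Apart from SHROOM3 no member passed between CPF and FS at any time point (1 of 10 at Baseline; 0 of 10 at FR2, FR8 and FR20, with 0% of all genes, and with 1, 0 and 0 members at an unadjusted p under 0.05 beside 5.58%, 5.17% and 3.25% of all genes). ACTG1 came nearest: its Baseline levels, 1120 to 2630 CPM in CPF and 559 to 1670 CPM in FS animals, overlapped, and the difference of 0.79 (95% interval 0.37 to 1.21) did not pass with edgeR (adjusted p = 0.165) but did with DESeq2 (adjusted p = 0.0443). At FR2 the row ENSSSCG00000017987 of MYH10 had 1.89 to 3.59 CPM in CPF and 1.3 to 13.3 CPM in FS animals, a difference of -0.92 (95% interval -1.71 to -0.13, edgeR adjusted p = 0.879). This row took its symbol from the study's lists of differentially expressed genes. Of the 5 animals that died, 3 were FS and 2 CPF. With the feeding group as a covariate no member passed between animals that died and those that lived at any time point, no gene did (0%), and DESeq2 called no member. At an unadjusted p under 0.05 there were 0 members at each time point, beside 8.54%, 5.52%, 2.22% and 5.22% of all genes from Baseline to FR20. ACTG1 at FR2 was 2440, 3700 and 5060 CPM in the 5 that died and 662, 2800 and 4400 CPM in the 18 that lived, a difference of 0.41 (SE 0.31, edgeR adjusted p = 0.953).

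The members are part of a larger apparatus, which was described through a list of 97 symbols, 74 of which had a row. Of 74 rows tested in FS animals 40 rose and 8 fell at FR2vB, 30 rose and 7 fell at FR8vB and 35 rose and 5 fell at FR20vB, beside 20.3% up and 21.1% down, 19.9% up and 19.5% down, and 17.4% up and 16.4% down over all genes. The median changes were 0.28, 0.19 and 0.24, beside -0.04, 0.00 and 0.04. Without the 4 FS animals the counts were 39 up and 11 down, 37 up and 10 down, and 34 up and 7 down. Over all genes 50.3%, 53.1% and 44.1% then passed, both directions together. In CPF animals 7 rose and 0 fell at FR2vB (2% up and 1.4% down over all genes), 12 rose and 3 fell at FR8vB (6.31% and 6.99%) and 1 rose, ITGB1, at FR20vB (0.278% and 0.615%). These CPF counts without the 4 FS animals were 18 up and 4 down, 22 up and 6 down, and 6 up and 0 down. The share of all genes that passed there was also higher, at 10.8%, 23.1% and 7.56%, both directions together.

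**Figure D4:**
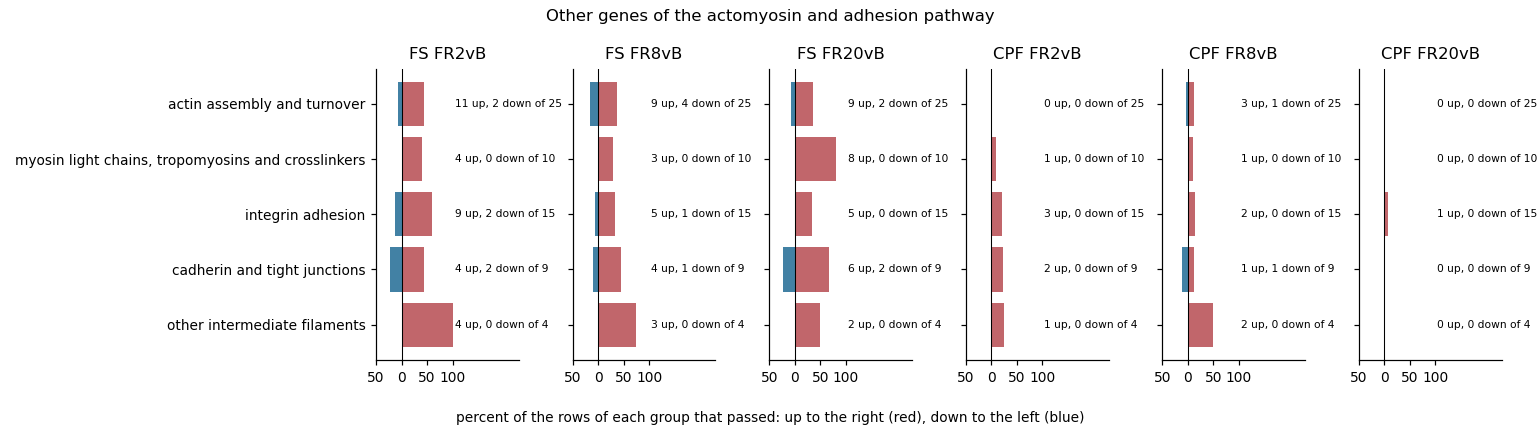
Share of the tested rows of 5 groups of the pathway list that passed upward (red, right) or downward (blue, left) from Baseline, with the counts printed beside each bar. In FS animals more rows rose than fell in all 5 groups at all 3 time points, and in CPF animals 1 row passed at FR20vB, in the integrin adhesion group.

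The highest and lowest genes named here are those among the rows that passed. Among genes of actin assembly and turnover 11, 9 and 9 of 25 rose and 2, 4 and 2 fell at FS FR2vB, FR8vB and FR20vB. At FR2vB ezrin (EZR), which ties filaments to the membrane, rose most (1.09) and the coronin CORO1B fell most (-0.60). At FR8vB profilin (PFN1), which feeds actin monomers to growing filaments, rose most (0.89) and CORO1B again fell most (-0.54). At FR20vB radixin (RDX) was highest (0.91) and the depolymerising factor DSTN lowest (-0.34) of those that passed. Of the myosin light chains, tropomyosins and crosslinkers 4, 3 and 8 of 10 rose and none fell at the 3 time points. The tropomyosin TPM4 led at each (1.09, 1.04 and 0.95), and the smallest passing changes were those of IQGAP1 (0.37), ACTN4 (0.35) and MYL12A (0.33).

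Of the integrin adhesion genes 9, 5 and 5 of 15 rows rose and 2, 1 and 0 fell. The adaptor BCAR1 was highest at FR2vB and FR8vB (1.92 and 1.14) and the fibronectin receptor chain ITGA5 at FR20vB (0.87). TLN2, the paralog of TLN1, was lowest: of its 3 rows 2 fell by 1.81 and 1.75 at FR2vB, and 1 of them by 1.13 at FR8vB. Part of the TLN2 rows took the symbol from the study's lists of differentially expressed genes, and for such rows a fall is no independent evidence. The lowest passing value at FR20vB was that of ITGB1 (0.58).

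Of the cadherin and tight junction genes 4, 4 and 6 of 9 rose and 2, 1 and 2 fell. Plakoglobin (JUP) was highest at FR8vB and FR20vB (0.56 and 0.71), while occludin (OCLN), a tight junction membrane protein, fell at each (-0.90, -1.12 and -1.06). Of the other intermediate filament genes 4, 3 and 2 of 4 rose. KRT8 was highest at FR2vB (2.32) and KRT18 at FR8vB and FR20vB (2.28 and 1.72), with KRT8 at 1.66 at FR20vB, where those were the 2 that passed. The lowest passing change was that of LMNB1 (0.36 and 0.53) at the first 2 time points. In CPF animals KRT8 rose by 2.33 at FR2vB and by 1.98 at FR8vB, and TPM4 by 1.07 and 0.92.

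For each member the 3 named genes with the most similar profile were sought among 5163 genes with a mean of at least 10 CPM, by Pearson r of log2 CPM over the 88 libraries, which share animals. ACTB was closest to AKIRIN2 (r = 0.84), SNRPA1 and NOP56, and ACTG1 to MYO1E (r = 0.84), CORO1C and TM4SF4. VCL was closest to KCTD10 (r = 0.80), CORO1C and UGCG. MYH9 was closest to ACTN4 (r = 0.87), AGFG1 and SMG5, and TLN1 to ATN1 (r = 0.82), KDM1A and YARS1. MYH14 was closest to TMEM98 (r = 0.81), ILVBL and ERLIN1, and VIM to LTBP1 (r = 0.79), TYROBP and ITM2C. The MYH10 rows were closest to HSPG2 (r = 0.77), COL6A3 and ADAM9 and to CNN3 (r = 0.63), ENG and COL4A2. SHROOM3 was closest to GPAM (r = 0.75), which starts triglyceride synthesis, then PARP8 and ABCC2.

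Markers of other cell types moved with time as well. Of 91 listed symbols 59 had a row. Over the 8 groups the median summed level was 56000 to 215000 CPM for hepatocytes, 484 to 1070 CPM for stellate cells and fibroblasts, 147 to 280 CPM for smooth muscle, 10.9 to 22.7 CPM for striated muscle, 183 to 317 CPM for endothelium and 242 to 436 CPM for macrophages. It was 7.02 to 25.1 CPM for neutrophils, 23.6 to 45.4 CPM for T and NK cells, 51.4 to 161 CPM for cholangiocytes and 60.3 to 390 CPM for erythroid cells. The most abundant marker of these lists, neutrophils left aside, was ALB, COL3A1, ACTA2, DES, PECAM1, C1QA, NKG7, SPP1 and HBB, in that order. MYH11 and CSF3R had no read. At FS FR2vB, where the actins, MYH9, TLN1 and VCL rose, the hepatocyte sum fell from a median of 215000 to 151000 CPM (ranges 92300 to 241000 and 61100 to 182000 CPM) and the neutrophil sum rose from 8.25 to 22.4 CPM (ranges 6.17 to 24.1 and 8.77 to 71.2 CPM). Of the rows tested 5 of 10 hepatocyte rows fell and 1 rose, and 3 of 6 neutrophil rows rose. The stellate cell and fibroblast sum fell from a median of 948 to 529 CPM, with 2 of 8 rows up and 3 down. The macrophage sum fell from 433 to 367 CPM, with 3 of 5 rows down. Of 5 endothelial rows 1 rose and 2 fell, and of 4 smooth muscle rows 1 rose. Among striated muscle, T and NK cell and erythroid rows 1 of 5, 1 of 6 and 1 of 3 fell, and 1 of 4 cholangiocyte rows rose. Over all genes 20.3% rose and 21.1% fell. The part of these cells in the members' changes was not tested.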

How the data were processed

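The authors sequenced poly-A RNA of liver biopsies as single reads, base called with CASAVA 1.8.2, aligned to Sscrofa 10.2 with TopHat 1.5.0 and counted per Ensembl gene with HTSeq, per the labels and the methods of the study. The deposited values are raw counts per gene for 92 libraries. The counting mode and strand setting are not given in the sources used here, so reads shared by paralogs, overlapping genes or antisense genes cannot be told apart. Of 25322 identifiers 11804 took a symbol from the gene name table and 700 from tables of the study. Those tables list genes that the study called differentially expressed, so calls on rows named only there are no independent evidence. Such rows include both MYH10 rows, SHROOM3, part of the TLN2 rows and other rows of the pathway and cell type lists. Members and lists were chosen with earlier results of these data known.

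Counts were scaled by TMM and tested with edgeR 4.0.16 (quasi-likelihood, R 4.3.3) on genes that reached a CPM of 10 when summed across a fit's libraries, with Benjamini-Hochberg adjustment over all genes tested. Changes over time and their difference between CPF and FS were fitted with a term for each animal, and CPF against FS and died against lived at each time point in separate fits. The animal codes in the labels pair the libraries: of 126 library pairs from the same animal 85 had deviations from the group means that correlated over 0.1 (median r = 0.22), against 745 of 2391 pairs from different animals (median r = -0.02). The 88 libraries held a median of 12071958 counts, and no columns were identical. Alternatives were RLE scaling, 2 other filters, DESeq2 1.42.0, the likelihood ratio test, a fold threshold, no animal terms, the left-out libraries kept, and animals left out. Named genes were all members, the passing gene with the highest and the lowest change in each pathway group at the 3 FS comparisons with Baseline, the 3 genes most like each member, and the most abundant marker of each cell type list. Some of these genes, and 1 group of the pathway list, are not reported here. On simulated counts with 200 changed genes 148 were recovered at FS FR2vB with 5 false calls, 78 at CPF FR8vB with 4, and 115 at CPFvFS FR2 with 10.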

Additional observations from a re-analysis of the deposited data

Results flagged for a closer look

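CPF animal 8 stood apart from the other CPF animals in MYH10. Its level was 10.6 CPM on ENSSSCG00000017987 at FR20, where the next animal had 5.63 CPM. On ENSSSCG00000027341 it was 11.9 CPM at Baseline, with 4.58 CPM next, and 23.4 CPM at FR20, with 8.77 CPM next. Each gap was above Dixon's 95% critical value. These were 3 of 40 groups of 4 or 5 libraries examined, and chance gives about 1 in 20.

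The 3 FS Baseline libraries left out for want of albumin held far more reads on several members than the 15 other FS Baseline libraries, in CPM without TMM scaling. In animals 17, 19 and 21 VCL was at 421, 539 and 361 CPM, against 39.1 to 80.4 CPM in the others, and VIM at 451, 511 and 555 CPM, against 78.3 to 255 CPM. MYH10 was at 81.4, 28.6 and 72.1 CPM on ENSSSCG00000017987, against 0.556 to 8.06 CPM, and at 90.3, 39.2 and 61.1 CPM on ENSSSCG00000027341, against 4.63 to 11.8 CPM. The means of the 3 libraries were 441, 506, 60.7 and 63.5 CPM for VCL, VIM and the MYH10 rows, respectively. SHROOM3 was below every other library, at 0.197, 0.117 and 0.499 CPM against 5.78 to 18.3 CPM. These libraries enter comparisons only where they are said to be kept, and the cause was not tested.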

How the results depend on the processing

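With RLE scaling or edgeR's filterByExpr no count of passing members moved by over 1.5 times. Without a filter, CPF FR2vB and CPF FR20vB had 0 members. With the 3 albumin-free libraries kept, or all 92 libraries, CPF FR2vB, CPF FR20vB, FS FR20vFR8 and CPFvFS B had 0, CPF FR8vFR2 had 1 with the 3 kept, and VCL at FS FR2vB reversed to -0.06 and -0.04. DESeq2 passed 2 at CPF FR8vB, CPF FR20vB, FS FR20vFR8 and CPFvFS B, and the likelihood ratio test 2 at CPF FR20vB and FS FR20vFR8. With a log2 fold change of at least 1 required, 1 member was left at FS FR2vB and FS FR8vFR2 and 0 at FS FR8vB, FS FR20vB, FS FR20vFR8 and CPF FR8vB. With FS animals 10, 17, 19 and 21 left out, chosen after seeing the data, 2 passed at CPF FR8vB and CPF FR20vB and 3 at FS FR20vFR8. With no replicate block, that is without the pairing by animal, 0 passed at CPF FR20vB and FS FR20vFR8, and VIM at FS FR8vB (-0.40), FR8vFR2 (-0.49) and FR20vFR8 (0.57) and MYH14 at FS FR20vB (0.26) did not pass. Leaving out each CPF animal in turn gave 0 to 0 members at CPF FR2vB, 0 to 1 at CPF FR8vB, 0 to 1 at CPF FR20vB, 0 to 2 at CPF FR8vFR2 and 3 to 4 at FS FR20vB. The causes were not tested. Leaving out single FS animals was not run for changes over time.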

Other observations

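The later libraries of FS animals 17, 19 and 21 were each closest to another time point, and in the same order. Their FR2 libraries were closest to the FR8 mean of the other FS animals (r = 0.67, 0.44 and 0.76), their FR8 libraries to the Baseline mean (r = 0.90, 0.71 and 0.91) and their FR20 libraries to the FR2 mean (r = 0.51, 0.65 and 0.70). The FR20 library of CPF animal 13 was closest to the Baseline mean (r = 0.85). The cause was not tested.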
